A study of Mus musculus with 54 samples.

Results

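The comparison was between day 2 primordial germ cell-like cells (PGCLC) of an Ovol2 mutant mouse line, labelled Ovol2KO, and wild-type (WT) PGCLC at the same day. Its members are 4 RNA-seq libraries of the 54 in the series, 2 for each genotype, taken by their column names, which give stage and genotype. The series holds embryonic stem cells (ESC), epiblast-like cells (EpiLC) and PGCLC of 9 lines, all of mixed C57BL/6 X 129/SvJ strain, with 2 libraries of poly(A) RNA for each line and stage. WT and Ovol2KO differed by label in the Ovol2 genotype alone; a further line used below is labelled TKO, a name that the labels do not spell out but that stands beside Ovol1, Ovol2 and Ovol3 mutant lines. The labels do not give the altered part of Ovol2, the number of clones behind a line, any sorting of the PGCLC, or whether the 2 libraries of a group came from separate cultures, so the p-values below measure only the spread between such libraries.

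Primordial germ cells are the founders of eggs and sperm. In the mouse they arise from the epiblast, next to cells that undergo an epithelial-to-mesenchymal transition (EMT) in the primitive streak and become mesoderm, and BMP and WNT signals reach both. In culture, ESC are brought through an epiblast-like state and then exposed to BMP4 and other cytokines, which gives PGCLC. Ovol2 encodes a zinc finger transcription repressor that is known for holding cells epithelial, with the EMT factor Zeb1 among its known targets. ZEB and SNAI proteins repress epithelial genes through E-box sequences.

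Values were deposited as TPM, a measure of transcript abundance scaled for gene length and library size. Reads per library, recovered from the steps of the low values, numbered 5217720 and 6943661 in WT PGCLC and 10305327 and 2644126 in Ovol2KO PGCLC, within a range of 2158379 to 26728538 over the series. Differences are given as log2 fold changes of TPM + 1 with their standard error (SE), which understates the change of low genes, and a gene is called when its Benjamini-Hochberg adjusted p from limma is under 0.05 and its log2 fold change is at least 1 in size. By this rule 1179 of 14416 tested genes were called in PGCLC (8.18%). Of them 592 were higher in Ovol2KO PGCLC, a background of 4.11%, and 587 were lower, a background of 4.07%. Both Ovol2KO libraries lay above both WT libraries for 35.3% of tested genes and below them for 26.1%, so that groups that do not overlap are common in this comparison. In bulk RNA, fewer cells of a type and less RNA per cell cannot be told apart.

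**Figure D1:**
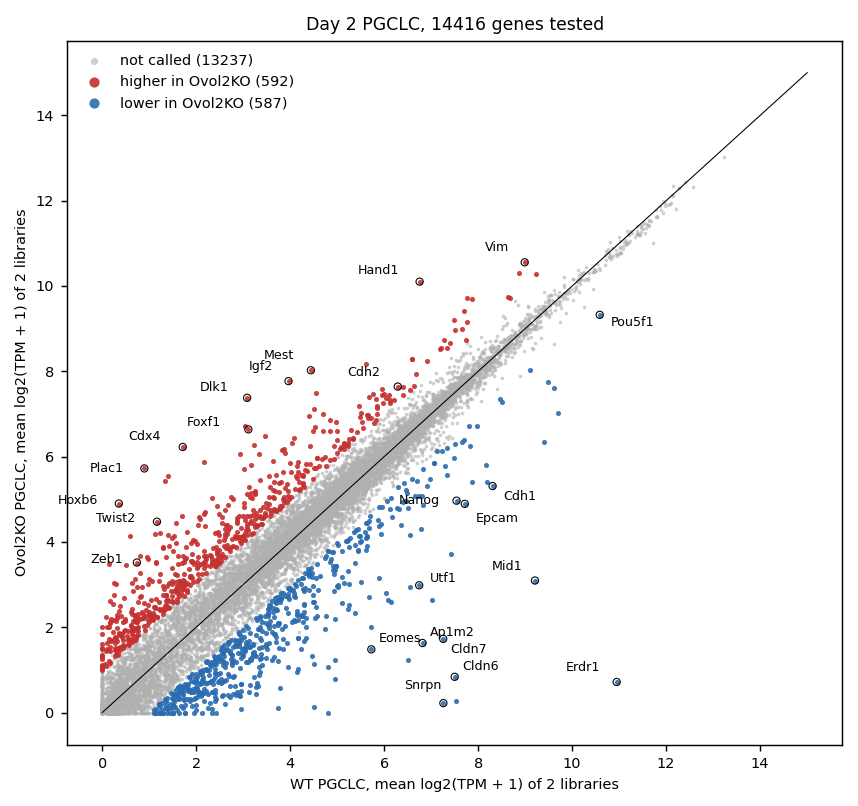
Each point is 1 of 14416 tested genes, at its mean log2(TPM + 1) over the 2 WT PGCLC libraries (horizontal) and the 2 Ovol2KO PGCLC libraries (vertical), and the line marks equal levels. The 592 genes called higher are red and the 587 called lower are blue; claudins, Cdh1, Erdr1 and Snrpn lie far below the line, and Hoxb6, Cdx4, Plac1 and Hand1 far above it.

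The level of Ovol2 itself (chr2:144305175-144332080, mm10) does not check the genotype, because a whole-gene value cannot show an altered part. Ovol2 stood at 11.3 and 6.98 TPM in WT PGCLC and at 4.74 and 6.67 TPM in the libraries labelled Ovol2KO. The log2 fold change was -0.57 ± 0.27 (SE), with an adjusted p of 0.133 by limma, which misses the threshold. In EpiLC the Ovol2KO libraries held more Ovol2 mRNA, 33.7 and 34.6 TPM against 9.51 and 12.7 TPM (log2 fold change 1.55, adjusted p = 3.88e-07), and in ESC they held 15.3 and 14.1 TPM against 10.6 and 4.98 TPM (adjusted p = 0.0559). In the TKO line Ovol2 was at 1.51 and 0.835 TPM in PGCLC, at 9.21 and 11.2 TPM in EpiLC and at 3.72 and 6.57 TPM in ESC. The related genes were not called: Ovol1 was at 1.02 and 0.325 TPM in WT and 0.532 and 0.882 TPM in Ovol2KO PGCLC, and Ovol3 at 9.39 and 9.66 TPM in WT and 6.99 and 7.18 TPM in Ovol2KO.

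Several genes that the annotation places on the X or Y chromosome, and several imprinted genes, were far lower in Ovol2KO than in WT at every stage. Erdr1, at 1912 and 2036 TPM in WT PGCLC, was at 1.7 and 0 TPM in Ovol2KO, and its neighbour Mid1 on the X chromosome went from 589 and 592 to 7.12 and 7.99 TPM. The Y-linked genes Ddx3y, Eif2s3y, Uty and Kdm5d were at 1.72 TPM or more in both WT libraries and at 0.19 TPM or less in both Ovol2KO libraries. Snrpn and Snurf, which share exons of 1 imprinted transcript so that reads cannot be told apart, were both high in WT and near 0 in Ovol2KO: Snrpn was at 143 and 162 TPM in WT and 0 and 0.358 TPM in Ovol2KO, and Snurf at 172 and 196 TPM in WT and 0 and 0.433 TPM in Ovol2KO. In Ovol2KO ESC and EpiLC the same genes stayed under 5 TPM. Kdm5d was an exception to the fall at every stage, since it was low in WT ESC too, at a mean of 0.26 TPM. TKO PGCLC kept Erdr1 (2516 and 2806 TPM), Mid1 (614 and 625 TPM) and Snrpn (89.1 and 98 TPM) and were low in Ddx3y (1 and 1.77 TPM). Eif2s3y was low in TKO as well (0.874 and 0.826 TPM). What these differences between the lines stem from, and their part in the results below, was not tested. Away from the Y chromosome no autosome and not the X stood apart as a whole: the median log2 fold change per chromosome lay between -0.013 and 0.085 in PGCLC.

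Epithelial junction genes fell in Ovol2KO PGCLC. Cdh1 (chr8:106603350-106670247), which encodes E-cadherin, the adhesion molecule of epithelia, was at 312 and 319.7 TPM in WT PGCLC and at 42.3 and 35.4 TPM in Ovol2KO. The groups did not overlap, and the log2 fold change was -3.00 ± 0.11 (SE, adjusted p = 2.49e-10). Of 19 tested tight junction genes, 9 fell and 1 rose, with a median log2 fold change of -0.97 against 0.04 over all genes tested, and 8 more listed genes were too low to test. The claudins are the strand-forming proteins of tight junctions, and Cldn6, Cldn7 and Cldn4 had the largest falls in the list. Cldn6 (chr17:23679348-23682446) went from 157 and 206 TPM to 2.19 and 0 TPM (log2 fold change -6.66 ± 0.46). Cldn7 (chr11:69964779-69967886) went from 138 and 167 to 2.27 and 2.35 TPM (log2 fold change -5.53 ± 0.24) and Cldn4 (chr5:134945123-134946934) from 93.5 and 85.3 to 2.8 and 0.471 TPM (log2 fold change -5.26 ± 0.30). The tight junction proteins occludin (Ocln, 7.13 and 10.5 to 0.828 and 0 TPM) and cingulin (Cgn, 30.5 and 31 to 7.08 and 6.6 TPM) also fell, while the cingulin paralog Cgnl1 rose from 7.11 and 5.52 to 17.7 and 18.2 TPM.

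Other parts of the epithelial apparatus fell as well. Of 19 surface, protease and polarity genes 12 fell and 0 rose (median -1.09). They include Epcam (195 and 224 to 32.6 and 25.2 TPM, log2 fold change -2.82 ± 0.15), a homophilic adhesion protein, and the membrane protease matriptase (St14, 63.5 and 71 to 5.43 and 5.09 TPM) with its inhibitor Spint2 (292 and 280.1 to 61.9 and 48.5 TPM). Ap1m2 (chr9:21294615-21312349), the epithelial clathrin adaptor subunit that sorts cargo to the basolateral side, went from 106 and 118 to 1.77 and 2.45 TPM (log2 fold change -5.19 ± 0.27). The apical polarity gene Crb3 (chr17:57062201-57065918) went from 25.1 and 29.1 to 0.762 and 1.48 TPM (log2 fold change -3.75 ± 0.24). The upstream regulators moved with them: of 8 tested, 4 fell and 0 rose, namely the grainyhead factors Grhl2 (11.1 and 12 to 1.56 and 1.38 TPM) and Grhl3 (10.3 and 10.2 to 3.17 and 2.15 TPM) and the splicing factors Esrp1 (54.9 and 49.3 to 3.44 and 2.58 TPM) and Esrp2 (6.62 and 6.71 to 1.15 and 0.958 TPM). The keratins of simple epithelia were split. Krt8 stood at 580.2 and 530.4 TPM in WT and 509.7 and 504 TPM in Ovol2KO (adjusted p = 0.733). Krt18 was at 355 and 314 TPM in WT and 343 and 361 TPM in Ovol2KO (adjusted p = 0.855). Krt19 was called lower (log2 fold change -1.20, adjusted p = 0.0114), a call lost under 2 of 13 other settings. Krt7, at a low level, was called lower too (3.72 and 2.18 to 0 and 0.538 TPM). Within the 14 desmosome and keratin genes 5 fell, among them the plaque genes Jup (84.3 and 88.5 to 29.5 and 31 TPM) and Pkp3 (9.27 and 8.88 to 0.579 and 1.12 TPM).

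The promoters of the genes that fell carried 1 motif more often than other promoters. The E-box CACCTG, read on both strands so that CAGGTG counts too, is the sequence that ZEB and SNAI repressors are known to bind. It was found within 250 bases before a RefSeq start (GRCm38.p6) in 180 of the 437 lower genes with a promoter in the table, a share of 41.2%. The share was 16.6% of the 416 higher genes, 18.8% of the 10075 genes not called, and 19.4% of all 27025 genes with a promoter in the table. A gene counted when any of its starts had the motif, and the lower genes had 1.33 starts each against 1.27 over the tested genes. With only the first listed start of a gene, the share was 37.5% of the lower and 16.3% of the tested genes. Among the genes called lower in PGCLC and in neither ESC nor EpiLC, it was 39.6%. The share was high at the earlier stages too, at 39.2% of 97 genes lower in EpiLC and 31.7% of 284 lower in ESC. The lower genes did not stand apart in base composition, with a median GC content of 59.6% against 59.6% over the tested genes, nor in 2 other E-boxes. CAGCTG was in 13.5% of the lower promoters and 14.7% of the tested ones, and CACGTG in 9.6% and 9.9%. The core CCGTTA of the sequence bound by OVO proteins was in 3.4% of the lower, 3.6% of the higher and 3.6% of the tested genes. For the EpiLC calls it was in 8 of 97 lower genes (8.2%) and 6 of 56 higher genes (10.7%). For the ESC calls it was in 10 of 284 lower genes (3.5%) and 0 of 73 higher ones. Among genes lower at all 3 stages it was in 3 of 32 (9.4%). Several of these counts are small. These are matches of letters, given as a description; they do not show that any protein was bound.

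**Figure D2:**
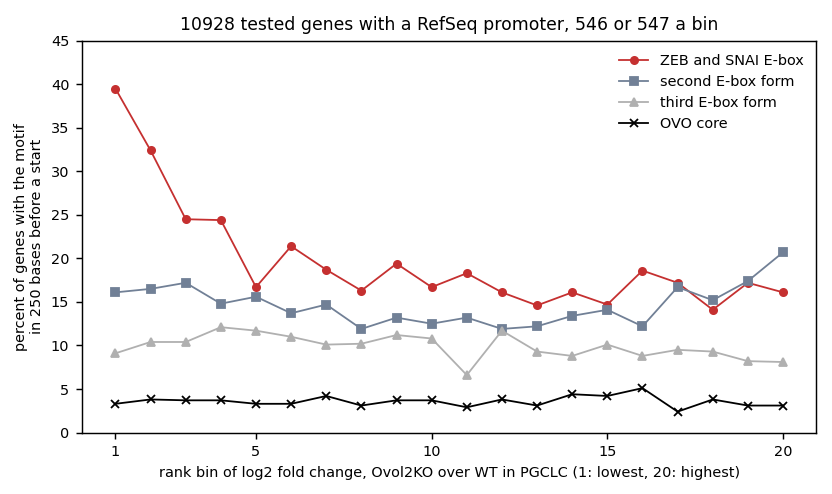
The 10928 tested genes with a promoter were ranked by log2 fold change and split into 20 bins of 546 or 547 genes (horizontal, 1 lowest), and the vertical axis gives the percent of genes in each bin with each motif in the 250 bases before a start. The ZEB and SNAI E-box falls from 39.5% in the first bin and 32.4% in the second to between 14.1% and 21.4% from the fifth bin on; the other motifs show no such slope, and the second E-box form is highest, at 20.7%, in the last bin.

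The promoters below belong to genes described above or next and show how the motif lies in them, with each CACCTG or CAGGTG and each CCGTTA in capitals. All are RefSeq sequences of GRCm38.p6, 5′ to 3′ in the direction of transcription. Claudin 4, Spint2 and Epcam carry 1, 3 and 2 E-boxes, the nearest of them 14, 9 and 19 bases before the start. Ap1m2 is shown up to its first exon in GENCODE, with 3 of the 4 E-boxes in its window. For Crb3 only 30 bases are shown, which hold 1 of the 3 E-boxes in its window; there the OVO core and that E-box stand side by side. Nanog, a pluripotency gene that also fell, has 1 E-box, and Nodal, which fell too, has none and is the contrast.
Cldn4 promoter (chr5:134946935-134947184, minus strand): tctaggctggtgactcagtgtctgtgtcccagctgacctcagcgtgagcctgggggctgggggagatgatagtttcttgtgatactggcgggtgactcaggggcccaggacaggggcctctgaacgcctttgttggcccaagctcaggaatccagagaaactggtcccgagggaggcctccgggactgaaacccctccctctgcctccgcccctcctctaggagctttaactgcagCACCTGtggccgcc
Spint2 promoter (chr7:29281978-29282227, minus strand): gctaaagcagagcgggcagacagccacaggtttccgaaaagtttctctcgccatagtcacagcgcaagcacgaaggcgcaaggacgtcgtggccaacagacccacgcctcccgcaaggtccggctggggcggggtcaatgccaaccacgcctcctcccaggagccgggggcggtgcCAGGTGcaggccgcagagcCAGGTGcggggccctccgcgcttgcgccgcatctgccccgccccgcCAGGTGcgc
Epcam promoter (chr17:87635729-87635978, plus strand): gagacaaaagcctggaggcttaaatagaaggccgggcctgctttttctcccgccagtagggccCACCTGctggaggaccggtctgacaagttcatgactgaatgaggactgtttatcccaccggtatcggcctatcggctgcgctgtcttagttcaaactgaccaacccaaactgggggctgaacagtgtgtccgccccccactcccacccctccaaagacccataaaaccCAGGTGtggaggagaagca
Ap1m2 promoter (chr9:21312338-21312583, minus strand): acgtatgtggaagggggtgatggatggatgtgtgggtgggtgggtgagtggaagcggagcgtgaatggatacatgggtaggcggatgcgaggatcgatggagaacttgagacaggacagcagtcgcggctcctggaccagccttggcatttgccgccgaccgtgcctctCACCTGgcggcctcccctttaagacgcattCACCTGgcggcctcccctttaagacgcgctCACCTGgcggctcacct
Crb3 site (chr17:57062123-57062152, plus strand): atggggttcCCGTTACAGGTGctctggcgg
Nanog promoter (chr6:122707239-122707488, plus strand): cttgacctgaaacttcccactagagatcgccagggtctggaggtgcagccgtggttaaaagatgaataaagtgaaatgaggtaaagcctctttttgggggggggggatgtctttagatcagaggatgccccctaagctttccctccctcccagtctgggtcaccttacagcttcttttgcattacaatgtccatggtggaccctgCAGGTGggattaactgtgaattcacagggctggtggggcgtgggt
Nodal promoter (chr10:61417722-61417971, plus strand): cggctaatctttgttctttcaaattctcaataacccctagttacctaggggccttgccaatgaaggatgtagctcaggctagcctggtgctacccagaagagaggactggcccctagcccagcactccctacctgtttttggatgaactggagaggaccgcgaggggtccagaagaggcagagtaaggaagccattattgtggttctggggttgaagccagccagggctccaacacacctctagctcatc

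Mesenchymal genes rose as the epithelial genes fell. Of 11 tested EMT transcription factors 7 rose and 1 fell, with a median log2 fold change of 1.13. Zeb1, a repressor of epithelial genes, was at 1.02 and 0.379 TPM in WT and 10.5 and 10.4 TPM in Ovol2KO PGCLC (log2 fold change 2.78 ± 0.23, adjusted p = 5.69e-07), and Zeb2 went from 3.6 and 3.7 to 11.7 and 11.7 TPM. Twist2 (chr1:91801461-91848034) rose from 1.28 and 1.2 to 21.7 and 20.8 TPM (log2 fold change 3.31 ± 0.31) and Twist1 from 8.53 and 7.53 to 20.9 and 22 TPM. The SNAI family split: Snai1 (63 and 46.8 to 102 and 118 TPM) and Snai2 (5.24 and 1.72 to 11.5 and 11.4 TPM) were called higher, whereas Snai3 fell from 4.51 and 4.16 TPM and is listed at 0 in both Ovol2KO libraries (adjusted p = 0.000237). The calls of Snai1, Snai2 and Prrx2 were lost under 5, 3 and 3 of 13 other settings, and without the second WT library, or without the second Ovol2KO library, 4 EMT factors were called higher in place of 7.

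N-cadherin (Cdh2), the adhesion molecule of mesenchyme, rose from 89.3 and 66.7 to 192 and 206 TPM (log2 fold change 1.35 ± 0.27, adjusted p = 0.00236) and the mesenchymal cadherin Cdh11 from 10.9 and 7.91 to 41.5 and 43.5 TPM. Vimentin (Vim), the intermediate filament of mesenchymal cells, went from 570.1 and 452 to 1495 and 1513 TPM and tropomyosin 1 (Tpm1) from 230.3 and 200 to 824 and 846 TPM. Of 27 tested collagen and laminin genes 8 rose and 1 fell. Col1a1, a chain of fibrillar collagen I, rose from 12 and 8.3 to 84.5 and 92.9 TPM. Fibronectin (Fn1), the matrix ligand laid down during the transition, rose from 432 and 366 to 843 and 873 TPM, and the laminin-binding integrin chain Itga3 fell from 44.3 and 36.7 to 13.7 and 14.9 TPM. Among 23 integrin and matrix ligand genes 4 rose and 2 fell. Smooth muscle genes were split. With 14 mesenchymal and smooth muscle genes tested, 3 rose and 0 fell, beside 4.11% of all genes called higher, and the median was 0.12. The actin gene Actc1 rose from a mean of 15.3 TPM in WT to 56.8 TPM in Ovol2KO. In the same order, Acta2 had means of 23 and 33.3 TPM and Cnn1 of 36 and 25.6 TPM. Tagln stood at 384 and 338 TPM in WT and 209.9 and 247 TPM in Ovol2KO (log2 fold change -0.66 ± 0.19). The fixed fibroblast markers, looked at because feeder cells could carry such genes, gave a summed level of 19.3 and 16.2 TPM in WT and 58.6 and 57.1 TPM in Ovol2KO, with Pdgfrb and Cd248 called higher. Dcn, Lum, Fap and Tbx15 stayed under 1 TPM in all 4 libraries and Fap was at 0.

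Germ cell genes went in different directions. Among the 3 specifiers, Prdm14 was at 12.5 and 12.7 TPM in WT and 16.8 and 13.5 TPM in Ovol2KO (log2 fold change 0.24 ± 0.15, adjusted p = 0.256). Prdm1, which represses the somatic program, was at 30.3 and 25.9 TPM and 21 and 13.3 TPM, a difference of -0.71 ± 0.21 that passed the adjusted p (0.0184) and not the size. Tfap2c, the third specifier, fell from 44.1 and 43.7 to 21.9 and 12.5 TPM (log2 fold change -1.35 ± 0.20, adjusted p = 0.000145), a call that was lost without the second Ovol2KO library, where the log2 fold change was -0.97. Over the 17 specifiers and early germ cell genes 8 fell and 2 rose, with a median of -1.16. Dppa3 (Stella) fell from 18 and 20.4 to 2.69 and 2.08 TPM, and Dnd1, an RNA-binding protein needed for germ cell survival, from 43.3 and 52.7 to 20.8 and 20.9 TPM. Nanos3, needed for germ cell survival too, was at 9.81 and 9.05 TPM in WT and at 7.54 and 1.17 TPM in Ovol2KO, where the 2 libraries lay far apart, and was not called (adjusted p = 0.0786). The genes that rose were Alpl, the alkaline phosphatase used as a germ cell stain (147 and 162 to 427 and 416 TPM), and Ifitm1 (209 and 222 to 528 and 605 TPM). Genes of germline genome defence and meiosis were mostly not called, with 2 of 28 lower, among them Tdrd5 (34.7 and 40.2 to 4.88 and 4.67 TPM).

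Core and naive pluripotency genes fell. Of 15 core genes 10 fell and 0 rose (median -1.50), and of 14 naive genes 8 fell and 0 rose (median -1.58). Pou5f1 (Oct4) went from 1441 and 1638 to 670.3 and 611 TPM (log2 fold change -1.26 ± 0.09), Sox2 from 84.4 and 89.1 to 32.9 and 27.4 TPM and Nanog from 172 and 198 to 31.7 and 28.9 TPM. Utf1 (chr7:139943856-139945112), a chromatin factor of pluripotent cells, fell from 97.7 and 116 to 5.89 and 8.09 TPM (log2 fold change -3.76 ± 0.28). Esrrb (30.9 and 29.2 to 3.48 and 3.69 TPM) and Zfp42 (18.7 and 16.8 to 1.71 and 1.89 TPM), both naive-state genes that germ cells switch on again, fell in both libraries. Among genes that stay on in germ cells, Dppa5a went from 628 and 730.5 to 78.6 and 81.4 TPM, Dppa2 from 20.2 and 17 to 2.72 and 1.76 TPM and Dppa4 from 20.9 and 23.4 to 2.3 and 5.56 TPM. L1td1, an RNA-binding protein of pluripotent cells, fell from 275 and 309 to 45.5 and 37.7 TPM, the naive factor Klf2 from 98.3 and 119.5 to 24.5 and 14.1 TPM and its partner in the naive list Tfcp2l1 from 21 and 24.9 to 4.16 and 3.4 TPM. Klf4 and Tbx3, 2 other naive factors, were not called (31.7 and 43.2 against 33.1 and 14.8 TPM, and 106 and 86 against 151 and 175 TPM). Of the 16 formative genes, which mark the epiblast-like state, 8 fell and 2 rose (Car4 and Lef1), with Fgf5 at 6.73 and 11.7 TPM in WT and 0.176 and 1.02 TPM in Ovol2KO and Otx2 at 6.29 and 9.87 TPM in WT and 0.247 and 0.956 TPM in Ovol2KO.

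Posterior patterning genes rose. Of 36 tested Hox genes 24 rose and 0 fell (median log2 fold change 1.49), and 14 rose with a filter at 5 TPM, which leaves fewer Hox genes to test. Hoxb6 (chr11:96292814-96301569) went from 0.319 and 0.238 to 24.3 and 34.2 TPM (log2 fold change 4.55 ± 0.45, adjusted p = 3.61e-06) and Hoxd9 (chr2:74697763-74700208) from 4.21 and 2.85 to 53.9 and 62.1 TPM (log2 fold change 3.72 ± 0.34). The rise covered every cluster, with 7 of 11 tested genes called in the Hoxa cluster, 7 of 9 in Hoxb, 5 of 9 in Hoxc and 5 of 7 in Hoxd. By position, 10 of 15 genes of paralog groups 1 to 5, 11 of 12 of groups 6 to 9 and 3 of 9 of groups 10 to 13 were called. Hoxb1, which had the highest level of the Hox genes in WT PGCLC, was not called: it was at 71.4 and 64.8 TPM in WT and 125 and 146 TPM in Ovol2KO, a log2 fold change of 0.98 ± 0.30 that just misses the size. In the middle groups Hoxa9 was at 0.131 and 0 TPM in WT and 3.75 and 3.7 TPM in Ovol2KO, Hoxb8 at 3.03 and 1.19 TPM in WT and 20.6 and 21 TPM in Ovol2KO and Hoxd8 at 1.95 and 1.02 TPM in WT and 15.1 and 11.8 TPM in Ovol2KO. Hoxc5, Hoxc6, Hoxc8 and Hoxc9 are listed at 0 in both WT libraries and lay between 0.992 and 3.55 TPM in Ovol2KO, so the Hoxc rises are among genes of low level. The last groups gave Hoxa10 (0.134 and 0.1 to 4.21 and 6.24 TPM), Hoxa11 (0 and 0.138 to 2.89 and 1.49 TPM) and Hoxa13 (0 and 0.239 to 3.52 and 3.25 TPM), all of the Hoxa cluster. Cdx4 (chrX:103321398-103330224), a caudal factor that acts upstream of Hox genes, rose from 3.17 and 1.58 to 66.7 and 81.8 TPM (log2 fold change 4.51 ± 0.31) and Cdx2 from 193 and 169.5 to 482 and 526 TPM.

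**Figure D3:**
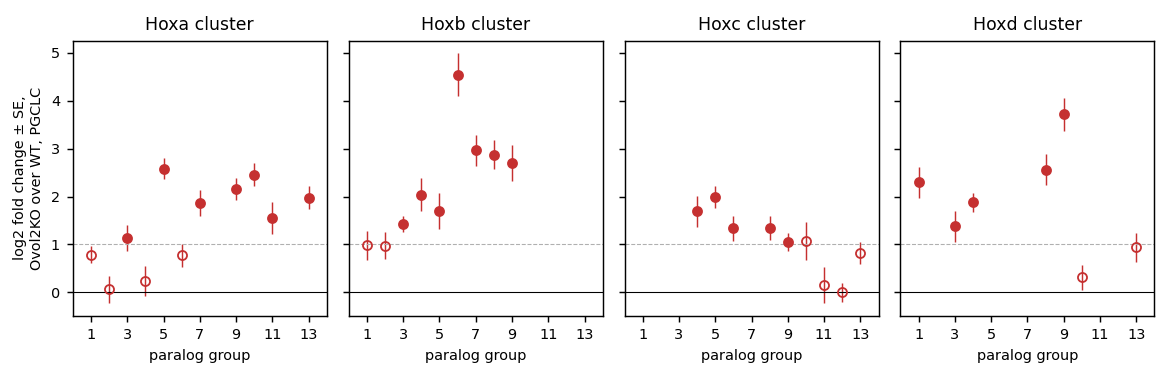
The 4 panels show the Hox clusters, with the paralog group (horizontal) and the log2 fold change of TPM + 1 in Ovol2KO over WT PGCLC with its SE (vertical); filled points are called and the dashed line marks a log2 fold change of 1. Hoxb6 and Hoxd9 stand highest, at 4.55 and 3.72, and groups 6 to 9 hold 11 called genes of 12.

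Lateral and extraembryonic mesoderm genes rose as a group: of 26 tested, 13 rose and 0 fell, with a median of 0.96. Hand1 (chr11:57828713-57832147), a bHLH factor of extraembryonic and lateral mesoderm, went from 141 and 80.9 to 1007 and 1197 TPM (log2 fold change 3.35 ± 0.47, adjusted p = 0.000358), with the WT libraries apart from each other but both below Ovol2KO. Foxf1 (chr8:121084386-121088154), which specifies lateral plate mesoderm, rose from 8.16 and 7.13 to 93.2 and 104 TPM (log2 fold change 3.53 ± 0.21) and the second heart field factor Isl1 from 6.34 and 2.49 to 30.5 and 33.1 TPM. The limb and allantois factor Tbx4 went from 0.388 and 0.0966 to 7.84 and 6.28 TPM, and the heart factor Tbx20 from 5.13 and 2.24 to 13 and 12.7 TPM. Gata6, a factor of heart mesoderm and endoderm, rose from 13.6 and 7.78 to 28.3 and 25.4 TPM. In this list the WT libraries were often unequal, the first above the second, while the Ovol2KO libraries lay close together. Plac1 (chrX:53069993-53240110), a placenta-enriched gene, had the highest log2 fold change of TPM + 1 among called genes, from 1.18 and 0.588 to 51 and 52.6 TPM (log2 fold change 4.83 ± 0.38), although its call was lost in the count-based fit of the recovered reads, and the ratio of the TPM themselves was higher for Hoxb6. Primitive streak genes were split, with 5 of 27 higher and 4 lower. Brachyury (T) stood at 1159 and 1279 TPM in WT and 760 and 694 TPM in Ovol2KO and Mixl1 at 287 and 248 TPM in WT and 139 and 179 TPM in Ovol2KO, neither of them called (adjusted p = 0.139 and 0.149). Eomes (chr9:118478186-118486132), which drives the anterior streak and endoderm, fell from 43.7 and 61.7 to 1.36 and 2.29 TPM (log2 fold change -4.25 ± 0.31), and Fgf3 rose from 10.2 and 8.17 to 63.3 and 69.3 TPM. The fixed markers of blood and endothelium, endoderm and trophoblast were near the floor. Those of endoderm summed to 2.07 and 3.43 TPM in WT and 2.55 and 1.73 TPM in Ovol2KO, and Afp and Ttr were at 0. The wider lists were not at the floor. Of 16 blood and endothelial genes 2 rose and 0 fell, and of 11 endoderm and axial genes 1 rose and 3 fell. Of 8 trophoblast genes 1 rose and 3 fell, with a median log2 fold change of -0.72. The list summed to 53.3 and 56.7 TPM in WT and 177 and 205 TPM in Ovol2KO, a higher sum that most tested members did not share.

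Signalling genes are given by branch, and several branches were split. Of 20 tested Nodal and TGF-beta genes 6 fell and 4 rose, with a median of 0.10. The ligand Nodal fell from 77.2 and 112 to 20.2 and 14.2 TPM and its coreceptor Tdgf1 from 803 and 869 to 135 and 122 TPM. The feedback antagonist Lefty2 fell from 81.7 and 105 to 7.7 and 5.89 TPM. Cfc1 and Acvr1b were called higher, from group means of 5.62 to 28.1 TPM and of 21.9 to 52.1 TPM. Of 21 BMP ligands, receptors and antagonists 7 rose and 0 fell, with the ligand Bmp4 going from 34 and 22.6 to 109.7 and 119.7 TPM and the antagonist Bmper from 15.1 and 11.1 to 39.2 and 43.7 TPM. Of 15 BMP response genes 4 rose and 1 fell (median 0.37). Bambi, a pseudoreceptor induced by BMP and WNT, rose from 13.7 and 13.8 to 62.2 and 71.6 TPM, whereas Id1 was at 810 and 905 TPM in WT and 608 and 532 TPM in Ovol2KO and Id3 at 599.8 and 698 TPM in WT and 471 and 415 TPM in Ovol2KO, both lower by adjusted p (0.00261 and 5.01e-05) and not by size. Smad6, an inhibitor induced by BMP, rose from 36.4 and 32.5 to 78.1 and 80.4 TPM and Id4 fell from 30.4 and 27.5 to 9.69 and 8.73 TPM. Msx1 was at 228 and 196 TPM in WT and 327 and 366 TPM in Ovol2KO, a difference of 0.71 ± 0.17 that is under the size. Of 17 WNT target genes 7 rose and 1 fell, with Nkd1, a feedback inhibitor, at 17.3 and 13.6 TPM in WT and 76.5 and 80.9 TPM in Ovol2KO, and Lef1, the nuclear partner of beta-catenin, at 71.6 and 65.7 TPM in WT and 143 and 162 TPM in Ovol2KO. The WNT ligands and receptors were split, with 5 of 32 higher and 7 lower, and 3 higher without the second Ovol2KO library. Wnt3, the ligand needed for the streak, fell from 83.2 and 91.4 to 35.7 and 37.2 TPM and Wnt8a from 56.9 and 62.7 to 15.2 and 19.6 TPM, whereas Wnt5a, a ligand of the posterior mesoderm, rose from 26.2 and 23.6 to 102 and 91.8 TPM. Rspo3, which amplifies WNT signals, was called higher (66.6 and 56.2 to 174 and 170.5 TPM), and that call was lost under 5 other settings. The receptors Fzd5, Fzd6, Fzd7 and Fzd8 were called lower, Fzd7 with 39 and 33.2 TPM in WT and 15.6 and 15.1 TPM in Ovol2KO. The call of Fzd8 was lost under 3 of 13 other settings and that of Fzd6 under 1. Not all frizzled genes fell: means in WT and Ovol2KO were 189.9 and 273.5 TPM for Fzd10 and 10.7 and 9.02 TPM for Fzd2. In the FGF pathway, 3 of 21 genes rose and 2 fell. Dusp6, a feedback phosphatase of ERK, went from 379 and 329.8 to 152 and 170.4 TPM. The receptor Fgfr2 went from 1.42 and 2.53 to 8.73 and 8.29 TPM. Means in WT and Ovol2KO were 100.3 and 146.2 TPM for Dusp4, 43.6 and 41.2 TPM for Etv4 and 144.6 and 129.5 TPM for Etv5. ERK activity itself was not measured. Of 18 ephrin and Eph genes, the receptors Epha1 (103 and 122 to 28.1 and 28.1 TPM) and Epha2 (80.6 and 98.2 to 37.8 and 31.7 TPM) fell and the ligands Efna1 (40.3 and 42.9 to 97.5 and 93 TPM) and Efnb3 (18.7 and 14.9 to 45.1 and 43.2 TPM) rose. The retinoid genes Crabp1 (8.93 and 5.88 to 102 and 106 TPM), a binding protein, and Stra6 (1.97 and 1.38 to 13.2 and 14.5 TPM), a retinol transporter, were among 4 of 16 that rose, with 0 lower.

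**Figure D4:**
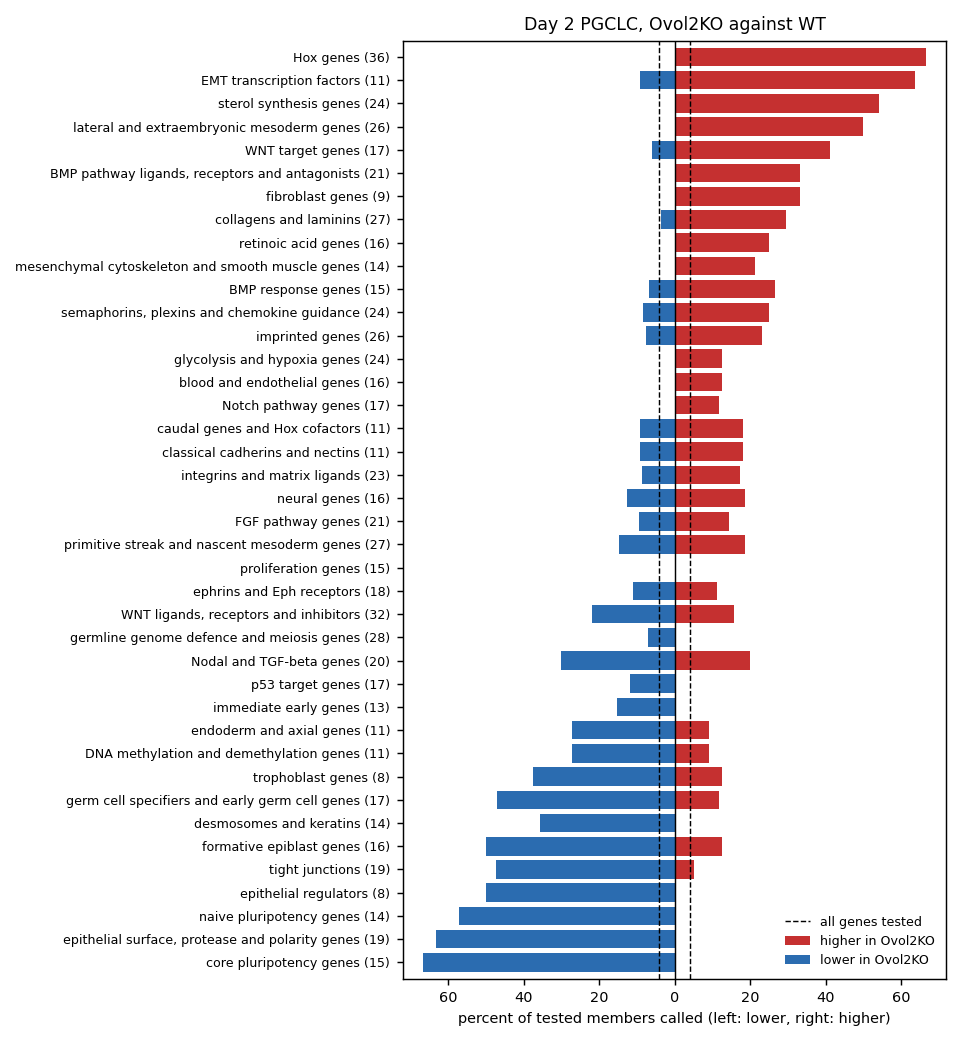
Each bar is a gene list with 8 or more tested members (number in brackets), and its length is the percent of tested members called higher (right, red) or lower (left, blue) in Ovol2KO PGCLC; dashed lines mark the share of all genes tested, 4.11% higher and 4.07% lower. Hox genes, EMT factors and sterol genes extend farthest right, pluripotency and epithelial lists farthest left, and none of 15 proliferation genes was called.

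Imprinted growth genes were among the largest rises. Igf2 (chr7:142650768-142666816), a fetal growth factor, went from 17.8 and 11.9 to 204 and 232 TPM (log2 fold change 3.81 ± 0.29), Dlk1 (chr12:109452485-109463336) from 8.54 and 6.52 to 153 and 179 TPM (log2 fold change 4.29 ± 0.37) and Mest (chr6:30733506-30748466) from 20.8 and 20.6 to 250.4 and 269 TPM (log2 fold change 3.58 ± 0.24). Over the 26 tested imprinted genes 6 rose and 2 fell, with Snrpn as above among the latter. Several large changes belong to none of these lists. Unc5c (chr3:141465564-141834924), a netrin receptor, rose from 1.94 and 1.18 to 40.8 and 43.5 TPM, Adgra3, an adhesion receptor, from 1.91 and 1.43 to 41.8 and 49.5 TPM, S1pr3, a sphingosine phosphate receptor, from 0.188 and 0.912 to 13.6 and 19.97 TPM and Rgs5, a pericyte-associated regulator of G protein signalling, from 0.233 and 0 to 10.1 and 10.4 TPM. Sfn, the epithelial 14-3-3 protein, fell from 140.5 and 116 to 8.33 and 3.17 TPM and Bspry from 26.3 and 33.9 to 2.02 and 0 TPM.

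Whether these differences were already there before PGCLC induction was asked of the same 2 lines at the earlier stages, each against WT of its own stage. In EpiLC 205 genes were called (1.42%), 82 higher (0.569%) and 123 lower (0.853%). Without the second WT library 344 were called, 194 higher and 150 lower, so that the balance turned, and with median centring 27.6% of calls were higher in place of 40%. In ESC 484 were called (3.36%), 111 higher (0.77%) and 373 lower (2.59%), and with quantile normalization 37.4% of calls were higher in place of 22.9%. A fit of only the 4 libraries compared, in which fewer libraries estimate the spread, called 76 genes in EpiLC and 119 in ESC. Of the 592 genes higher in PGCLC, 24 were higher in EpiLC (4.1% of the PGCLC list and 29.3% of the EpiLC list) and 14 in ESC (2.4% and 12.6%), while 18 were called lower in ESC and 1 lower in EpiLC. Of the 587 lower genes, 64 were lower in EpiLC (10.9% and 52%) and 94 in ESC (16% and 25.2%), while 13 were called higher in ESC and 4 higher in EpiLC. Called neither in ESC nor in EpiLC were 539 of the higher genes and 449 of the lower ones.

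The genes called higher at all 3 stages were 3, Zeb1, Cdh2 and Vim. Zeb1 was at 4.5 and 3.95 TPM in WT ESC and 9.56 and 11.5 TPM in Ovol2KO ESC, and at 1.81 and 1.97 TPM in WT and 10.1 and 9.12 TPM in Ovol2KO in EpiLC. Vim was at 44.2 and 36.8 TPM in WT EpiLC and 213 and 216 TPM in Ovol2KO EpiLC, and Cdh2 at 4.14 and 4.63 TPM in WT and 14.8 and 12.9 TPM in Ovol2KO. Lower at all stages were 36 genes, among them Cldn6, Cldn7, Crb3, Rab25, Ap1m2 and Krt7, and also Erdr1, Mid1, Snrpn, Snurf and 3 of the Y-linked genes named above. Ap1m2 was at 39.2 and 38.6 TPM in WT EpiLC and 1.47 and 1.91 TPM in Ovol2KO EpiLC, and Cldn7 at 145 and 133 TPM in WT and 22.6 and 21.6 TPM in Ovol2KO.

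Cdh1 and Epcam were not called in EpiLC. There Cdh1 was at 461 and 451 TPM in WT and 370.4 and 364 TPM in Ovol2KO, a log2 fold change of -0.31, and Epcam at 354 and 343 TPM in WT and 276 and 304 TPM in Ovol2KO, a log2 fold change of -0.27. In ESC Epcam was called lower, with 79.3 and 83.9 TPM in WT and 30.4 and 33.6 TPM in Ovol2KO (log2 fold change -1.32, adjusted p = 2.87e-07), and Cdh1 was not called, with 468 and 411 TPM in WT and 304 and 343 TPM in Ovol2KO. The log2 effect of Ovol2KO on Cdh1 in PGCLC minus that in EpiLC was -2.69 (adjusted p = 8.06e-17 for the difference itself), and that on Epcam -2.56 (adjusted p = 4.71e-14). Over all genes the effect differed between PGCLC and EpiLC for 1112 genes (7.71%), 500 with a more positive effect in PGCLC (3.47%) and 612 with a more negative one (4.25%). Hoxb6, Cdx4 and Hand1 were under 1 TPM in EpiLC of both lines. Pou5f1 was at 1839 and 1839 TPM in WT EpiLC and 2030 and 1965 TPM in Ovol2KO EpiLC, and Nodal at 45.9 and 48.6 TPM in WT and 47.9 and 49.5 TPM in Ovol2KO; the difference between stages passed for both (adjusted p = 1.3e-12 and 5.65e-12). For Zeb1, Cdh2 and Rab25 it did not reach the size or the adjusted p, at 0.90, -0.11 and -0.10 on the log2 scale.

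**Figure D5:**
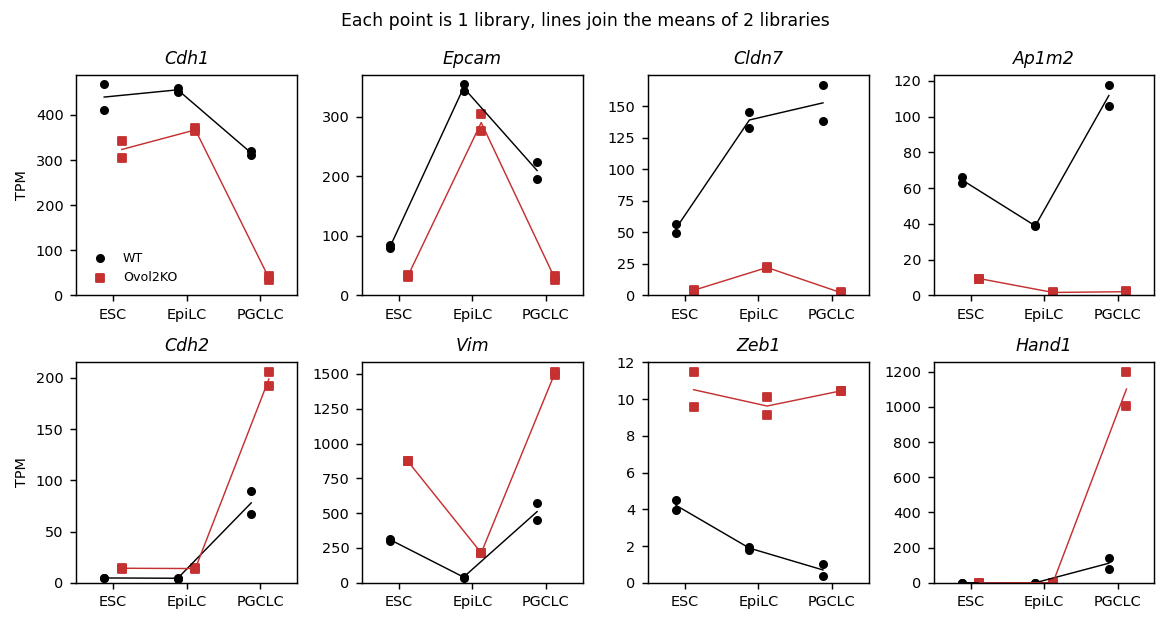
TPM (vertical, from 0) of 8 genes in ESC, EpiLC and PGCLC (horizontal), with black circles for the 2 WT libraries, red squares for the 2 Ovol2KO libraries and lines through their means. Cldn7, Ap1m2, Vim and Zeb1 separate the lines at every stage; Cdh1 stays above 300 TPM in Ovol2KO ESC and EpiLC and falls to 42.3 and 35.4 TPM in PGCLC, and Hand1 is near 0 before PGCLC.

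Ovol2KO cells themselves changed widely from EpiLC to PGCLC: 3506 genes were called (24.3%), 2110 higher (14.6%) and 1396 lower (9.68%). The median of all genes shifted by 0.13 on the log2 scale in this comparison, and with median centring 40.9% of calls were higher in place of 60.2%. WT cells made the same step with 3043 calls (21.1%), 1944 higher (13.5%) and 1099 lower (7.62%). Mesoderm and streak genes led the rises in Ovol2KO, with Hand1 going from 0.385 and 0.291 to 1007 and 1197 TPM, Cdx2 from 0.0852 and 0 to 482 and 526 TPM and T from 0.625 and 0.539 to 760 and 694 TPM. Sprr2a1 and Sprr2a3, at 0 in EpiLC and over 300 TPM in PGCLC, are near-identical copies, so the level of each is uncertain. Utf1 fell from 1427 and 1390 to 5.89 and 8.09 TPM, Otx2 from 104 and 108 to 0.247 and 0.956 TPM and Fgf5 from 93.8 and 97.4 to 0.176 and 1.02 TPM.

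Few genes were called between TKO and Ovol2KO PGCLC: 142 (0.985%), 103 higher in TKO (0.714%) and 39 lower (0.271%), with 79 called without the second Ovol2KO library and 51 in a fit of only these 4 libraries. The largest rises in TKO were Erdr1, Snurf, Snrpn and Mid1, which are low in the Ovol2KO line. Cdh1 was at 24 and 17.2 TPM in TKO, a log2 fold change over Ovol2KO of -0.90 (adjusted p = 0.000257), which is past the adjusted p and under the size. Cldn7 was at 1.6 and 0.378 TPM, Zeb1 at 12.7 and 11.8 TPM, Vim at 1647 and 1586 TPM and Hoxb6 at 39.2 and 31 TPM. Igf2 was lower in TKO, at 73.5 and 81.6 TPM (log2 fold change over Ovol2KO -1.48, adjusted p = 0.00954). Mest, at 584 and 577 TPM (log2 fold change 1.16, adjusted p = 0.0128), and Lefty2, at 28 and 23.3 TPM (log2 fold change 1.78, adjusted p = 0.00011), were higher. Nnat, an imprinted neural gene, fell from 50.1 and 42.1 TPM in Ovol2KO to 4.64 and 2.74 TPM in TKO. Both lines were read against the same WT libraries. TKO against WT gave 1518 genes (10.5%), 804 higher (5.58%) and 714 lower (4.95%), and Ovol2KO against WT gave 1179. PGCLC of the Ovol1KO and Ovol3KO lines held Cdh1 at 350.3 and 317 TPM and at 355 and 348 TPM, beside 312 and 319.7 TPM in WT. A call that is missing here does not show that the lines act alike.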

How the data were processed

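The TPM values were deposited by the authors as 1 table of 20036 genes by 54 libraries. Reads were aligned with HISAT2 to mm10, counted with featureCounts and handled in edgeR, per the submitters' processing notes; no source used here gives versions, a strand setting or a gene model. Per the labels' protocols, libraries were directional and made from poly(A) RNA with 12 cycles of PCR.

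Of these genes, 14416 had a TPM of at least 1 in 2 or more libraries. Values were tested as log2(TPM + 1) with limma 3.58.1 in R 4.3.3 (trend and robust empirical Bayes), with 1 mean per line in a fit of the 18 libraries of a stage, or of all 54 for contrasts between stages, and Benjamini-Hochberg adjustment over all tested genes. The scripts were tested on simulated data. TPM steps gave whole reads for all 17973 genes above 0 in a library (tolerance 0.01), and limma-voom on those reads called 1473 genes in PGCLC against 1179 in the main fit. Replicates of the same group differed by more than sampling noise (chi-square per degree of freedom 1.05 to 10.43), so none was merged.

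Named genes are the Ovol genes and Cdh1, the 15 largest rises and 15 largest falls among called genes whose groups did not overlap, the top 5 each way of the other comparisons, and list members taken by role. The comparison and the gene lists were chosen with earlier results of these data known, although membership of a library follows its label alone. Equal replicate numbers did not pair libraries of WT and Ovol2KO (correlation of deviations -0.02 in PGCLC, 0.02 in EpiLC, -0.13 in ESC). Gene positions and promoters come from RefSeq (GRCm38.p6), with 10928 tested genes matched to a promoter. Promoters on chromosome 18 were left out. Alternatives were another pseudocount, filter, scaling, fit and count test, a replicate block, and leaving out each library. The other lines of the series were used to estimate the spread. Some listed genes are not reported here by name.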

Additional observations from a re-analysis of the deposited data

Results flagged for a closer look

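The effect of Ovol2KO differed between PGCLC and EpiLC, by a test of the difference itself in limma, for 1112 genes (7.71%). Named here are the 25 that were among the 30 genes with the largest changes in PGCLC; the PGCLC effect is a term of the difference, so their number is not read against that share. The values that follow are the log2 effect in PGCLC minus that in EpiLC. Among the genes that rose in PGCLC they were 4.61 for Hoxb6, 4.52 for Cdx4, 4.25 for Plac1, 4.08 for Unc5c, 3.79 for Hoxd9 and 3.75 for Dlk1. They were 3.54 for Foxf1, 3.46 for Adgra3, 3.34 for Rgs5, 3.29 for Mest, 3.07 for Igf2, 3.06 for Hand1, 3.02 for Crabp1, 2.80 for S1pr3 and 2.35 for Twist2. Among those that fell they were -4.87 for Cldn6, -4.42 for Eomes, -4.17 for Cldn4, -3.77 for Utf1, -2.93 for Cldn7, -2.72 for Bspry, -2.39 for Sfn, -1.79 for Crb3 and -1.29 for Ap1m2. Mid1, low in the Ovol2KO line at both stages, had 1.23.

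Cdh1, with -2.69, and Ovol2, with -2.13, were flagged by the same test. Ovol2 had more mRNA in Ovol2KO than in WT at the EpiLC stage and a level that was not called in PGCLC. Genes called in opposite directions at the 2 stages were Krt19 (-2.22), Fads6 (-2.66), Nrcam (-2.10) and Alox5 (-2.45), higher in Ovol2KO EpiLC and lower in Ovol2KO PGCLC, and Oasl2 (2.64), lower in EpiLC and higher in PGCLC. The keratin gene Krt19 was at 0.424 and 1.57 TPM in WT EpiLC and 2.92 and 2.81 TPM in Ovol2KO EpiLC, and at 153 and 114 TPM in WT and 53.5 and 60.2 TPM in Ovol2KO in PGCLC. No group had the 4 libraries needed to look for a single deviating one.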

How the results depend on the processing

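Signs were compared between settings in PGCLC alone, for the genes with the largest changes, the called list members and a few others. No called value among them changed sign under the settings run. The signs of other calls, and of calls in the other comparisons, were not compared. The PGCLC count of 1179 genes lay between 1019 and 1502 under other settings and between 1064 and 1310 when a library was left out. Over the named and listed genes, 3267 results kept their side of the threshold, 118 lost a call and 2 gained one; of the counts per list, 1012 stayed within 1.5 times and 54 did not; calls were lost most often for Pbx4 and Rhox9, under 6 settings each. Fitting only the groups compared gave 119 genes in ESC, 76 in EpiLC and 51 between TKO and Ovol2KO, where fewer libraries estimate the spread. A pseudocount of 0.1 gave 377 genes in EpiLC, in place of 205. Leaving out a library gave 446 to 555 genes in ESC, 159 to 344 in EpiLC, 943 to 1227 for the difference between PGCLC and EpiLC, 3449 to 3653 for Ovol2KO PGCLC against EpiLC, and 79 to 199 for TKO. The share of higher calls with quantile normalization and median centring was 37.4% and 35.6% in ESC (22.9% without), 26.6% and 27.6% in EpiLC (40%), and 48.7% and 40.9% for Ovol2KO PGCLC against EpiLC (60.2%); the cause was not tested. With the replicate number as a block, 1179 genes were called in PGCLC, 480 in ESC and 201 in EpiLC. The block gave 1101 for the difference, 3467 for PGCLC against EpiLC and 140 for TKO. None of the PGCLC genes whose signs were compared lost its call with the block. A crossed pairing in ESC, chosen after seeing the data, gave 486. The second Ovol2KO library is the shallowest of the 4, with 2644126 reads, and limits what can be read from low genes.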

Other observations

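Cholesterol synthesis genes rose as a group in Ovol2KO PGCLC: of 24 tested, 13 rose and 0 fell, with a median log2 fold change of 1.01 against 0.04 over all genes tested. Hmgcs1, an early enzyme of the pathway, was at 194 and 207 TPM in WT and 517 and 503 TPM in Ovol2KO (log2 fold change 1.34 ± 0.08 (SE), adjusted p = 5.46e-08 by limma). Cyp51, a sterol demethylase, went from 60.6 and 68.2 to 172 and 155 TPM. In EpiLC 0 of the 24 was called, with Hmgcs1 at 585 and 583 TPM in WT and 531 and 508 TPM in Ovol2KO, so that its level in Ovol2KO PGCLC stood near that of EpiLC and its level in WT PGCLC below it. Several of these changes lie close to the size threshold: the calls of Sqle and Tm7sf2 were lost under 5 other settings and that of Dhcr7 under 4.

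Of 24 semaphorin, plexin and chemokine guidance genes 6 rose and 2 fell (Sema3e and Sema4d), with a median of -0.04. The chemokine genes were among those that rose. Cxcr4, the receptor that germ cells and mesoderm use to migrate, was at 1.86 and 0.694 TPM in WT and 9.11 and 11.8 TPM in Ovol2KO, its ligand Cxcl12 at 2.94 and 2.63 TPM in WT and 13.2 and 11.3 TPM in Ovol2KO, and the scavenger receptor Ackr3 at 0.908 and 2.17 TPM in WT and 10.9 and 16.9 TPM in Ovol2KO. Of 11 DNA methylation and demethylation genes 3 fell and 1 rose, Tet3, from 4.29 and 3.78 to 10.9 and 9.54 TPM. Dnmt3l, the cofactor of de novo methylation, went from 5.05 and 4.48 to 0.825 and 0.639 TPM, Dnmt3b from 130.4 and 148 to 67.6 and 69.8 TPM and the demethylation enzyme Tet1 from 22.1 and 19.7 to 10.9 and 8.12 TPM. Vegfa, a growth factor for vessels, rose from 4.34 and 6.03 to 19 and 15.3 TPM, among 3 of 24 glycolysis and hypoxia genes that rose.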
